A study of Drosophila melanogaster with 3 samples.

Results

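The 86 genes described here encode proteins of the cytosolic ribosome of Drosophila melanogaster. They were picked by a rule on symbols alone from the Ensembl annotation of the fly assembly that the peak lists use (dm6). The rule itself was set with earlier results of these data known. The rule took every protein-coding gene whose symbol is RpL or RpS (RpLP for the stalk proteins), a number and optional letters, and added sta, which encodes the small subunit protein also called RpSA. It found 48 genes for the large subunit and 38 for the small subunit among 13945 protein-coding genes on 6 chromosome arms.

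All values come from chromatin immunoprecipitation with sequencing (ChIP-seq), which maps where a protein sits on the genome. The single group held 3 libraries, numbered 1, 2 and 4 as biological replicates, from whole embryos of mixed sex aged 0 to 24 h. All embryos came from a transgenic line that stably carried the product of CG2116 with eGFP at its C terminus, and an antibody against GFP was used. The sources used here do not state the promoter of the tagged copy or whether the untagged gene was intact. No list from untagged or input chromatin was analysed here, so the values describe 1 condition and no conditions are compared. Depth per library is unknown, and nothing beyond the numbers tells separate embryo collections apart.

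Ribosomal protein genes are among the most strongly transcribed genes of growing cells, and their products are needed in matched amounts. In flies most of them lack a TATA box and start transcription at a pyrimidine-rich initiator, the TCT element, which works with the TBP-related factor Trf2. Heterozygous loss of many of these genes gives the Minute phenotype, with slow growth and short bristles. A few fly ribosomal proteins have a duplicate gene, and several of these duplicates are known mainly from the ovary or testis.

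The starts below come from some of the strongly bound genes and from copies of the same gene that differed in binding. Those of RpL7, RpL41 and RpLP2, also among the strongest, are not printed. Letters are in gene orientation, 5′ to 3′, from 120 bases before the annotated transcription start site (TSS) to 20 bases after it, read from the RefSeq copy of dm6. Capitals mark GCAAC, GCAACNCT, TATCGATA and GGTCACAC on either strand, and, on the coding strand, CTTT whose C lay within 2 bp of the TSS. GCAACNCT contains GCAAC, and TATCGATA reads the same on both strands. The first 5 are strongly bound genes: RpL13A (chr3R:5624354-5624493, plus strand), RpL28 (chr3L:3222941-3223080, minus strand), RpL14 (chr3L:8600886-8601025, plus strand), RpS12 (chr3L:13023232-13023371, plus strand) and RpS5a (chrX:17148245-17148384, minus strand). RpL14 was added because it holds 2 copies of GCAACNCT. The last 4 are RpL10Aa (chr3R:15037246-15037385, plus strand) and RpS10a (chr3R:27652640-27652779, plus strand), which had no IDR summit, each beside its bound copy, RpL10Ab (chr3L:11822731-11822870, plus strand) or RpS10b (chrX:19597911-19598050, plus strand).
RpL13A: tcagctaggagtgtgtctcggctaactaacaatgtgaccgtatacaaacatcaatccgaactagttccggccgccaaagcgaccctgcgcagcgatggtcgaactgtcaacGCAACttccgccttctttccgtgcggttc
RpL28: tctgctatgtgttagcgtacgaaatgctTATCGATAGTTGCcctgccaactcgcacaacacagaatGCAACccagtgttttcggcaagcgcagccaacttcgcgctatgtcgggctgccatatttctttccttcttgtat
RpL14: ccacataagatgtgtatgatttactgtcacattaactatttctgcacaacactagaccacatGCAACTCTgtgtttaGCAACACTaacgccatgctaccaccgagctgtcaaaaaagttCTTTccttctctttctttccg
RpS12: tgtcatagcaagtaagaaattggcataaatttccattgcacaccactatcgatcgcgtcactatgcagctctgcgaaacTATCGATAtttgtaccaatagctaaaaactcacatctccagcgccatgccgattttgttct
RpS5a: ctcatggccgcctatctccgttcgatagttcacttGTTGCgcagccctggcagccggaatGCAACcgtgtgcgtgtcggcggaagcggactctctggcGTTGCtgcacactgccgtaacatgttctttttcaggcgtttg
RpL10Aa: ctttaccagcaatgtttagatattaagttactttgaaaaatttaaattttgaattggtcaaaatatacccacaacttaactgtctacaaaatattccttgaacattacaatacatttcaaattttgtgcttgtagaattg
RpL10Ab: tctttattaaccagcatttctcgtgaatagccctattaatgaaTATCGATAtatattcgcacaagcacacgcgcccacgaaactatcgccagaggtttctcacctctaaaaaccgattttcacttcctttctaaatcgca
RpS10a: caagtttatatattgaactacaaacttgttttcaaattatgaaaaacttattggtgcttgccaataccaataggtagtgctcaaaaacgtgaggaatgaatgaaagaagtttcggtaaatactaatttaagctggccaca
RpS10b: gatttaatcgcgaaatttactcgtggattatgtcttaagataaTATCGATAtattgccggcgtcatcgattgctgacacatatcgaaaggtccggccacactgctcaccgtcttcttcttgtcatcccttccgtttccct

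CG2116-eGFP summits were found at the starts of nearly all ribosomal protein genes, of both subunits and in every library. In whole embryos, signal in few cells and weak signal in many cannot be told apart. A gene is called bound where at least 1 of its TSSs had, within 500 bp, a summit that passed the filter on the irreproducible discovery rate (IDR, 7137 peaks from pooled libraries). By this rule 81 of 86 were bound, 44 of 48 for the large subunit and 37 of 38 for the small subunit, against 42.6% of all protein-coding genes. The relaxed pooled list of 30000 peaks had a summit at 83 of them, against 60.4% of all genes. Any summit of the 30000 of a single library was found at 81 members in replicate 1, 84 in replicate 2 and 85 in replicate 4, against 59.2%, 58.5% and 60.3% of all genes.

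With each library limited to its 7137 strongest summits, as many as there are IDR peaks, 78 members kept a summit in replicate 1, 82 in replicate 2 and 82 in replicate 4, against 42.1%, 41.0% and 42.0% of all genes. All 3 libraries held the IDR summit among these strongest summits, within 100 bp, for 72 of the 81 bound members (88.9%), against 79.7% of all bound genes. The strongest 5% of IDR peaks (357 peaks) reached 29 members (33.7%), 16 of the large and 13 of the small subunit, against 3.46% of all genes. For the 73 mitochondrial ribosomal protein genes, which build the separate ribosome of that organelle, the counts were 62 bound and 5 (6.85%) with a peak of the strongest 5%. Of 28 genes for ribosome assembly factors 26 were bound, and 2 (7.14%) had such a peak.

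**Figure D1:**
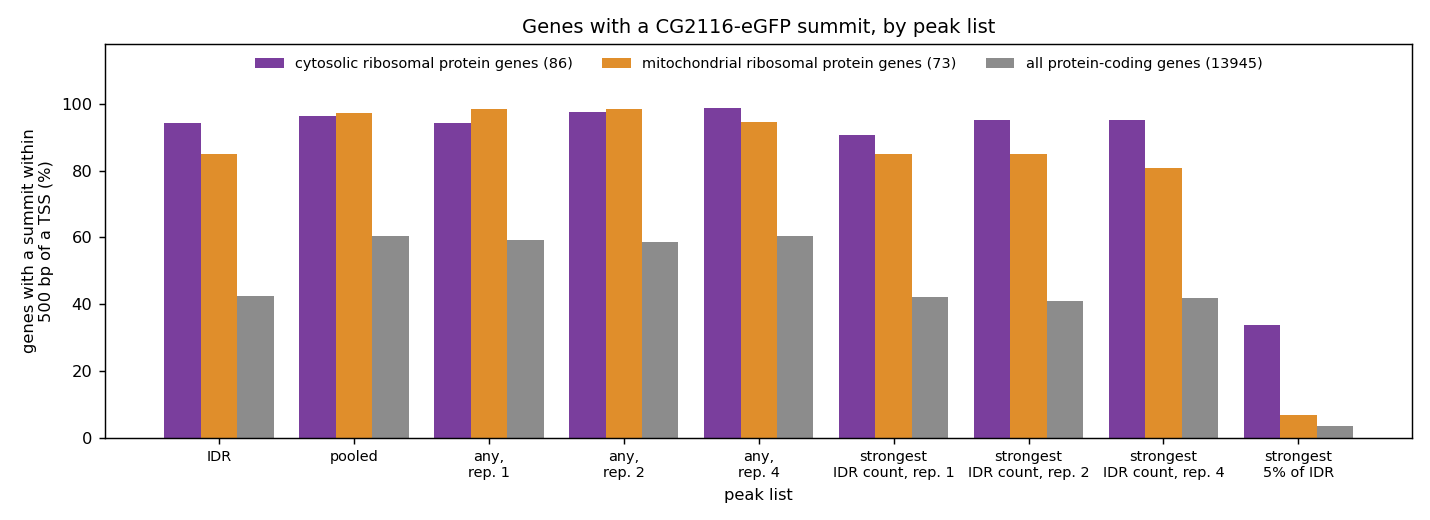
Share of genes (vertical axis, %) with a summit within 500 bp of a TSS in each peak list (horizontal axis), for 86 cytosolic ribosomal protein genes, 73 mitochondrial ribosomal protein genes and all 13945 protein-coding genes. The cytosolic and mitochondrial sets lie close together in the relaxed lists, and stand at 33.7% and 6.85% in the strongest 5% of IDR peaks, against 3.46% of all genes.

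Strength is given as relative signal, the caller's signal of the replicate summit within 100 bp of the IDR summit, divided by the median of such values in the same replicate. Each gene takes its strongest IDR summit. The bound members had a median relative signal of 2.63 (quartiles 1.40 and 6.25), against 1.33 (quartiles 0.869 and 2.20) for all bound genes. The members' median was 2.92 in replicate 1, 3.19 in replicate 2 and 2.50 in replicate 4, against 1.39, 1.35 and 1.33 for all bound genes. Bound mitochondrial ribosomal protein genes had a median of 1.20. A relative signal above 9, a line set after the values were seen, was reached by 20 of 81 members (24.7%), against 5.25% of all bound genes and 3 of 62 mitochondrial ones.

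**Figure D2:**
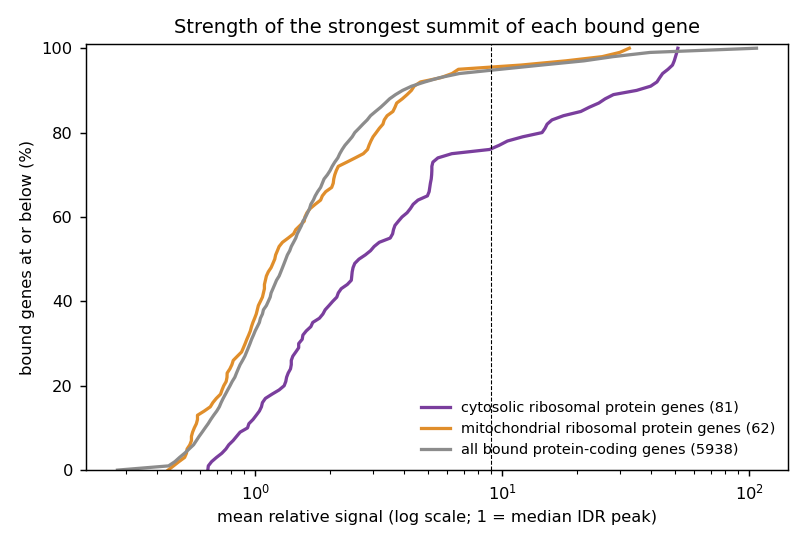
Cumulative share of bound genes (vertical axis, %) against mean relative signal (horizontal axis, log scale) for 81 cytosolic ribosomal protein genes, 62 mitochondrial ones and all 5938 bound genes with a replicate value. The cytosolic curve lies to the right of the others at nearly all heights, and crosses the dashed line at 9 with 24.7% of genes still above it, against 5.25% of all bound genes.

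The strongest large subunit member was RpL7, with relative signals of 54.2, 39.8 and 60.3 in replicates 1, 2 and 4 (mean 51.4 ± 10.5, SD, n = 3). Its peak (chr2L:10200647-10201452) had its summit 23 bp downstream of the RpL7 start and 53 bp from the start of Ripalpha. RpL41, which encodes the smallest ribosomal protein, had 53.8, 42.3 and 56.2 (chr2R:24903629-24904502). RpL13A (chr3R:5623893-5624855) had 52.6, 48.9 and 48.3, the smallest spread of the 3. The replicates overlapped widely among these 3 genes, so their order is not resolved.

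RpLP2, 1 of the acidic proteins of the stalk that engages elongation factors, had 54.6, 48.3 and 45.3 (chr2R:16585593-16586340). Its stalk partners stood far lower, RpLP0 at 3.29, 3.25 and 2.74 and RpLP1 at 3.07, 2.45 and 2.37. No replicate value of RpLP0 or RpLP1 came near those of RpLP2. RpL28 had 46.5, 46.6 and 38.9 (chr3L:3222625-3223671). RpL14 had 45.4, 32.5 and 51.3 (chr3L:8600574-8601320), and RpL6 had 45.5, 42.8 and 34.9 (chr3R:31595982-31596800). RpL22, whose protein also binds histone H1 in flies, had 36.7, 29.6 and 38.7, and RpL4 closed the upper group of 10 at 28.0, 29.3 and 22.4.

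The strongest small subunit member was RpS12, whose protein is needed in flies for cells with a Minute mutation to be outcompeted by their neighbours. It had 26.0, 25.1 and 26.2 (mean 25.8 ± 0.617, SD, n = 3; peak chr3L:13022524-13023608). RpS5a had 25.7, 21.4 and 21.7 (chrX:17147954-17148801), and RpS13 had 22.8, 19.1 and 20.7 (chr2L:8364468-8365122). RpS12 lay above both RpS5a and RpS13 in every replicate. RpS27A, which is made as a fusion with ubiquitin, had 19.0, 15.0 and 16.7. The RpS27A summit lay 69 bp from its own start and also 69 bp from that of Ip259, so distance does not separate these genes. RpS4 had 17.5, 10.9 and 17.6, and RpS29 had 15.4, 11.6 and 17.8, so RpS4 and RpS29 overlapped. Replicate 2 gave the lowest value in RpS27A, RpS4 and RpS29. For RpS4 the replicate 2 list also held a stronger summit, of 13.7, at 225 bp upstream of the start and not within 100 bp of the IDR summit.

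The order by mean had a step. Its first 10 genes were all of the large subunit and the next 10, from RpS12 to RpS5b, all of the small subunit, after which the subunits were mixed. The 20 strongest lay above the other 61 in each library: their lowest values were 10.2, 8.38 and 8.80 in replicates 1, 2 and 4, against highest values of 6.35, 6.38 and 6.22 among the other 61. The fold between neighbours was largest there, 1.53 between RpS5b (9.57 ± 1.02) and RpL13 (6.25 ± 0.200), and next largest, 1.32, between RpL22 and RpL4. The line between the subunits was less sharp, since RpS12 (26.2) exceeded RpL4 (22.4) in replicate 4. The split was read off the values, so it is described and not tested. All 20 had a single IDR summit and ranked between 13 and 217 among IDR peaks, and 11 of them ranked in the first 100. The peaks of the 20 were wide, with a median of 794 bp, against 376 bp for the other 61 and 500 bp for all bound genes. A width of exactly 500 bp was shared by 16 of the other 61 and by 3534 of the 5941 bound genes, and by 0 of the 20.

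**Figure D3:**
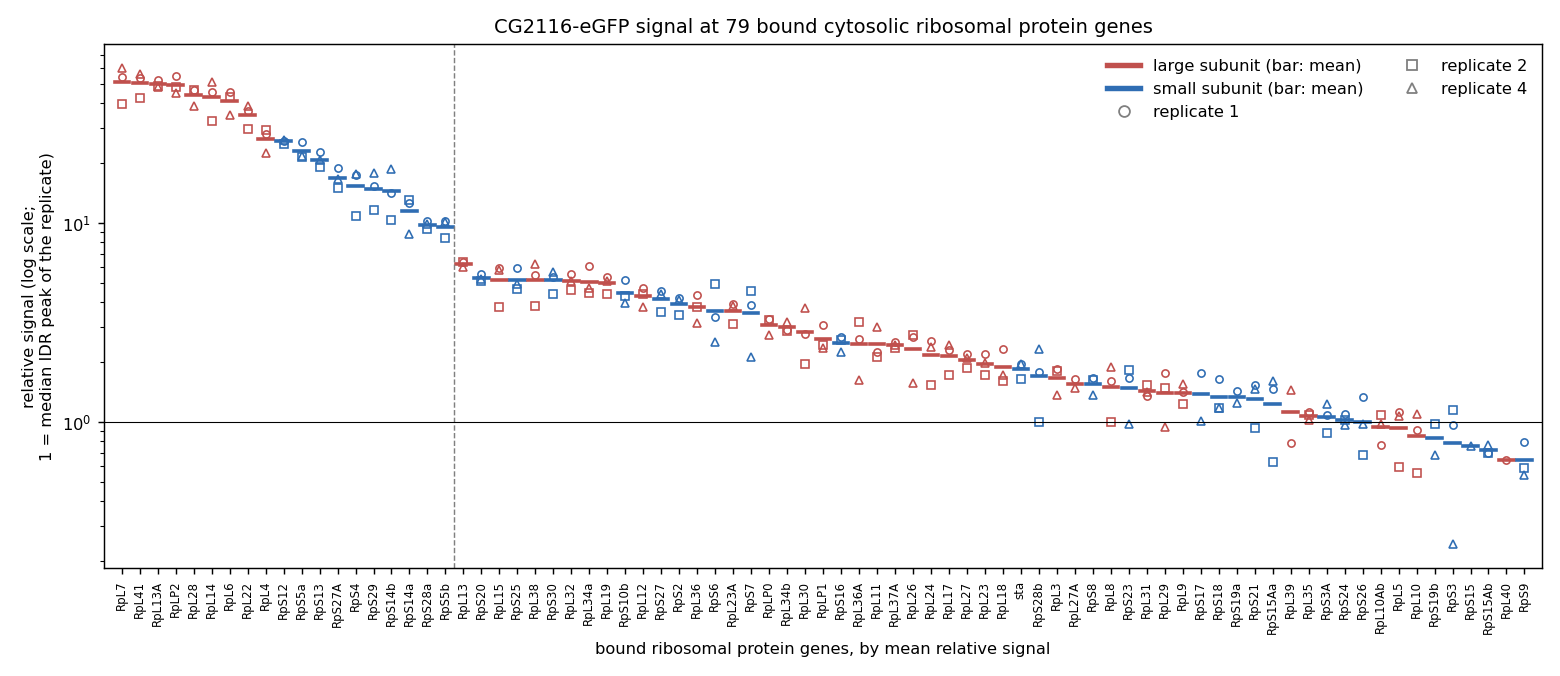
Relative signal (vertical axis, log scale) of 79 of the 81 bound members (horizontal axis, ordered by mean), with replicates 1, 2 and 4 as separate symbols, a bar for the mean, and colour for the subunit. To the left of the dashed line stand 9 large subunit genes and then 10 small subunit genes, all above the genes to its right in every replicate.

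No difference between the subunits as wholes held in every library. The median relative signal was 2.73 for the 44 bound large subunit members and 2.51 for the 37 small subunit members. The ratio of the medians, large over small, was 0.842 in replicate 1, 0.890 in replicate 2 and 1.34 in replicate 4, so its direction differed between libraries. Above 9 stood 10 genes of each subunit (22.7% of the large and 27.0% of the small subunit).

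The weakest bound members lay near or below the median IDR peak of a replicate. In the small subunit these included RpS15Ab (0.703, 0.703 and 0.770) and RpS9 (0.797, 0.590 and 0.544). In the large subunit RpL5, a partner of 5S rRNA, had 1.13, 0.597 and 1.07. RpL10, which joins the subunit late in its assembly, had 0.911, 0.553 and 1.10. RpL40, the other ubiquitin fusion, matched a summit in replicate 1 only (0.647). Its IDR summit lay 452 bp upstream, beside a stronger summit and 150 bp from the start of CG3702. Beyond the match distance, RpL40 had a summit of 0.957 at 224 bp upstream in replicate 2 and of 0.249 at 5 bp downstream in replicate 4. RpS15 likewise matched in replicate 4 only (0.761), and had an unmatched summit of 0.639 at 266 bp upstream in replicate 2. RpS3 had the largest coefficient of variation, 60.9%, with 0.971, 1.15 and 0.243. Its replicate 4 list also held a stronger summit, of 1.34, at 147 bp upstream of the start and beyond the match distance. The gene sta stood below the members' median, with 1.96, 1.65 and 1.95 and a summit 33 bp downstream of its TSS.

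The summits lay just upstream of the start. The median distance was -57 bp (quartiles -88 and -20), where negative is upstream along the gene, against -86 bp (quartiles -176 and -36) for all bound genes. Within 100 bp lay 67 of 81 summits (82.7%), against 52.7% of all bound genes, while the share upstream was alike, 72 of 81 (88.9%) against 89.6%. The 8 downstream summits were within 79 bp of the TSS, the farthest that of RpL26, and RpL37A had its summit on the TSS. The RpL26 position is that of the IDR summit, and its summits in replicates 1, 2 and 4 lay at -10, 2 and 22 bp. Over the bound members the replicate summits gave medians of -61, -60 and -50.5 bp. Among the strongest genes, RpLP2 and RpL6 had summits 254 and 225 bp upstream, and the replicate summits of RpLP2 lay at -254, -251 and -259 bp. RpLP2 was therefore not bound under a window of 250 bp.

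**Figure D4:**
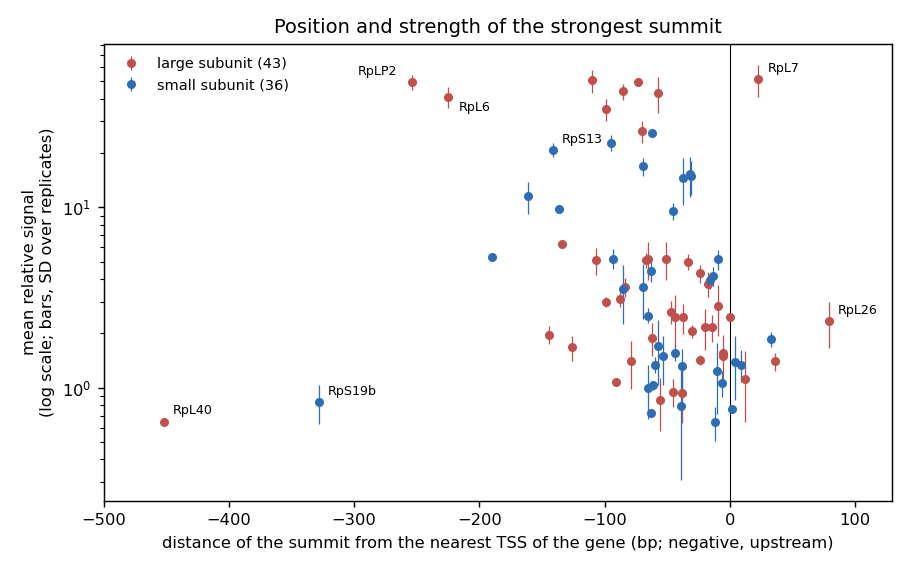
Mean relative signal (vertical axis, log scale; bars, SD over replicates) against the distance of the summit from the nearest TSS of the gene (horizontal axis, bp) for 43 large and 36 small subunit genes. Most points lie within 100 bp of the TSS; RpLP2 and RpL6 are strong and lie over 200 bp upstream, and RpL40 and RpS19b are weak and lie farther out.

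Some summits lay near the start of a neighbour as well. Another protein-coding start lay within 500 bp of the summit for 38 of 81 members (46.9%), against 58.9% of all bound genes. The median relative signal was 3.70 for these 38 and 2.33 for the 43 with no such neighbour, and 11 and 9 of them stood above 9. For 10 members (12.3%, against 28.7% of all bound genes) the other start was nearer to the summit than the member's own. RpL41 was 1 of them, at 110 bp from its own start and 72 bp from that of the sodium channel gene NaCP60E. RpS13 was another, at 141 bp from its own start and 52 bp from that of CSN8. With each summit counted for the nearest start only, neither RpL41 nor RpS13 was bound. RpL13 lay 134 bp from its summit, and Dref, the gene for the factor that binds TATCGATA, lay 50 bp from it. The RpS6 summit was also within 500 bp of bys, and that of RpL36 within 500 bp of Mybbp1A, both ribosome assembly genes. Whether the signal belongs to one gene or the other cannot be told apart in such pairs.

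The 5 members with no IDR summit fell into 2 kinds. RpL35A and RpL7A had an IDR summit just beyond the window. That near RpL35A was 661 bp upstream of it and 16 bp from the start of POLDIP2, with relative signals of 6.80, 3.43 and 7.15 (chr3R:5467429-5467975). The replicate 4 list alone also had a summit on the RpL35A start, at 1.07. The summit near RpL7A was 601 bp upstream and 50 bp from the start of dx, with 2.32, 0.634 and 2.65 (chrX:6533798-6534082). A weak pooled summit with a signal of 127.7, under the lowest IDR signal of 144.1, lay 29 bp upstream of RpL7A. The replicate lists placed a summit of 2.30 at 486 bp upstream of it in replicate 2 and of 0.527 at 6 bp upstream in replicate 4. On the inner side of the 500 bp line the farthest were RpL40 at 452 bp and RpS19b at 328 bp.

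RpL21, RpS10a and RpL10Aa stood apart from IDR peaks. RpL21 was 7955 bp from the nearest IDR summit, and the replicate lists gave it 0.304, 0.297 and 0.432. RpS10a was 16406 bp away, with 0.152 in replicate 2, 0.199 in replicate 4 and no summit in replicate 1. RpL10Aa was 50357 bp away and was the single member with no summit in any list.

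Of 6 pairs of paralogues with both copies bound, 3 kept one order in every replicate. RpS5a had 2.52, 2.55 and 2.14 times the relative signal of RpS5b, a copy known mainly from the ovary (2.40 ± 0.225, SD, n = 3). RpS28a had 5.71, 9.37 and 4.25 times that of RpS28b, which stood at 1.79, 0.998 and 2.34, and RpL34a had 2.09, 1.55 and 1.48 times that of RpL34b. In these 3 pairs the first copy was higher throughout. The RpS28a summit lay 136 bp from its own start and 58 bp from that of Axn, so RpS28a was not bound where a summit counted for the nearest start only. By that count RpS15Ab and RpS19b of other pairs were not bound either. Others did not keep an order: RpS15Aa over RpS15Ab gave 2.09, 0.901 and 2.09, and RpS14a over RpS14b gave 0.889, 1.25 and 0.468. RpS14a and RpS14b are near-identical copies whose starts lie 1156 bp apart, so reads could be split between them by the authors' mapping and their ratio is uncertain. RpS19a could be set against RpS19b, a germline copy, by matched summits in replicate 4 only, at 1.82. With the strongest summit of each replicate list within 500 bp, matched or not, RpS19a had 1.43, 2.15 and 1.25. By the same count RpS19b had 0.371, 0.978 and 0.685, at 218, 327 and 328 bp upstream of its start.

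In 2 pairs a single copy was bound: RpL10Ab (0.767, 1.09 and 0.982) and not RpL10Aa, and RpS10b (5.15, 4.28 and 3.95) and not RpS10a. The printed start of each bound copy holds TATCGATA, and that of each unbound copy holds none of the capitalised strings. Other starts differed. In the same window RpL22 and RpS28b, bound members with an unbound copy outside the rule, hold GCAAC and no TATCGATA, while RpL37-1 holds TATCGATA. The start of RpL35A, which was unbound, holds GCAAC. Of all bound members 28.4% had TATCGATA within 100 bp of the summit. A link between these strings and binding was not tested. Some related genes have symbols outside the rule. RpL37-1 would have stood among the strongest, at 40.6, 34.6 and 35.1, and its copy RpL37-2 was not bound. RpL22 was bound and the testis copy RpL22-like was not, and RpS28b was bound and RpS28-like was not, though an IDR summit with a mean relative signal of 0.662 lay 520 bp from its start, just beyond the window. RpL7-like, at 3.38, 3.69 and 3.35, stood far below RpL7, which was 14.9 ± 3.73 times as high. RpLP0 was 2.36 ± 0.718 times as high as RpLP0-like. RpL24 was lower than RpL24-like in every replicate, with ratios of 0.632, 0.418 and 0.779, but the summit of RpL24-like lay 150 bp from its own start and 6 bp from that of CG5276. Rack1, a scaffold protein on the small subunit, had 0.903, 0.553 and 1.43.

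**Figure D5:**
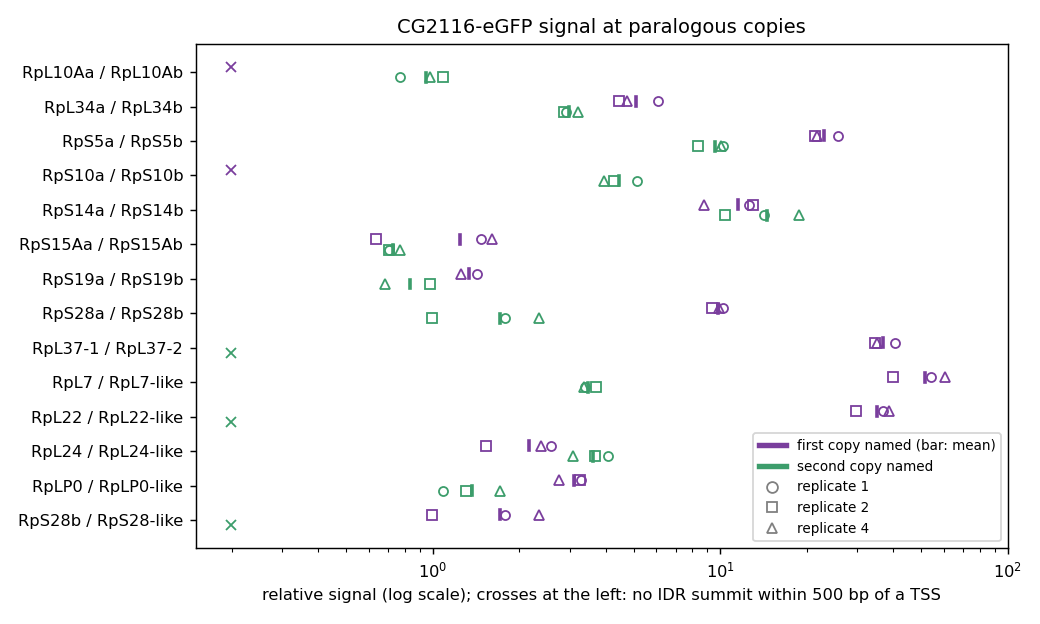
Relative signal (horizontal axis, log scale) in replicates 1, 2 and 4 for the copies of 14 pairs (rows), with a bar for the mean and a cross where a copy had no IDR summit. RpS5a, RpS28a, RpL34a and RpL7 lie wholly to the right of their copies, RpL24 wholly to the left of RpL24-like, and RpS14a and RpS14b overlap.

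Short sequence elements were counted within 100 bp of the summit, on both strands. TATCGATA, the DNA replication-related element bound by Dref, was at 23 of 81 members (28.4%), against 18.3% of the 5941 bound genes. GGTCACAC, the core of the promoter motif bound by M1BP, was at 14 (17.3%), against 10.2%, and within 200 bp of the summit at 16 (19.8%), against 16.5%. GCAACNCT was at 14 (17.3%), against 9.59%, and at 10 of 62 bound mitochondrial ribosomal protein genes (16.1%), a share close to that of the members. CATCNCTA was at 6 (7.41%), against 8.79%, TATAAA, the TATA box, at 23 (28.4%), against 33.0%, and GAGAG, the GAGA factor's element, at 4 (4.94%), against 15.5%. Within 200 bp TATAAA was at 38 members (46.9%), against 54.0% of bound genes, and GAGAG at 20 (24.7%), against 30.5%. CAGCTG, an E-box, was at 6 (7.41%), against 16.2%, and all 6 were small subunit genes: RpS4, RpS14b, RpS27, RpS6, RpS16 and RpS21. They made up 16.2% of the 37 bound small subunit genes, the same share as among all bound genes. Of the 44 bound large subunit genes 0 held CAGCTG. Of 62 bound mitochondrial ribosomal protein genes 21 (33.9%) held CAGCTG. A match is a string in a window and not a measured site.

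GCAACNCT and its first letters were also counted by strength. GCAACNCT, like the other elements, was chosen with earlier results of these data known, so its values are described and not tested. GCAACNCT was at 7 of the strongest 20 (RpL41, RpLP2, RpL14, RpS29, RpS14b, RpS28a and RpS5b) and at 7 of the other 61. Over all bound genes with a relative signal above 9 its share was 37.5% of 312. Members with it had a median relative signal of 7.38, and those without it 2.33. The medians with it were 8.08, 6.11 and 8.08 in replicates 1, 2 and 4, and without it 2.57, 2.45 and 2.29. GCAAC alone, which was picked from 7 strings tried after the sequences had been read, was at 16 of the strongest 20 and 26 of the other 61. It was at 51.9% of all 81 bound members, against 38.6% of all bound genes and 69.2% of those above 9. The gap to all bound genes depended on the window. Within 50 bp of the summit GCAAC was at 35.8% of bound members, against 23.4%, and within 200 bp at 66.7%, against 60.2%. From 250 bp before to 50 bp after the start it was at 55.6%, against 51.2%. The other strings tried were again counted within 100 bp of the summit. GCAACNC was at 27.2% of bound members, against 16.7% of all bound genes, and GCNACNCT at 29.6%, against 15.8%. GGNCACAC was at 25.9%, against 13.9%, GGCCACAC at 6.17%, against 2.58%, GCGGCC at 9.88%, against 4.38%, and ATCGAT at 37.0%, against 37.5%. Among the strongest 20, GCAACNC and GCNACNCT were at 9 each, ATCGAT at 7, GCGGCC at 5, GGNCACAC at 4 and GGCCACAC at 2. Members with TATCGATA had a median of 4.46 and those without it 2.31, while for GGTCACAC the medians were 1.96 with it and 3.62 without it. Of the 312 bound genes above 9, 28.5% held TATCGATA and 8.33% GGTCACAC. The medians with and without the element were 14.6 and 2.51 for GAGAG, at 4 members only, and 3.90 and 2.47 for CAGCTG. They were 3.05 and 2.63 for CATCNCTA, and 2.45 and 2.73 for TATAAA. RpL13A, RpL22 and RpS14a, which are among the strongest 20, held none of the 7 elements of the paragraph before within 100 bp of the summit. RpL13A and RpL22 did hold GCAAC there, and RpS14a did not.

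The TCT initiator was scored as CTTT on the coding strand with its C within 2 bp of any annotated TSS. It was found at 20 of 86 members (23.3%), against 3.28% of all protein-coding genes and 3 of 73 mitochondrial ribosomal protein genes (4.11%). The count turned on the distance allowed: 3 members (3.49%, against 0.810% of all genes) with the C on the TSS, 56 (65.1%, against 8.07%) within 5 bp and 72 (83.7%, against 14.9%) within 10 bp. It was at 3 of the strongest 20, 15 of the other 61 bound members and 2 of the 5 unbound ones, RpL7A and RpL21. Bound members with it had a median relative signal of 2.75, and those without it 2.63.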

How the data were processed

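ChIP-seq peak lists of 3 libraries of 1 group were used. The authors deposited, on dm6, a relaxed list for each library, a pooled relaxed list and an IDR list, per the deposited file descriptions. The signal values in them were made by the authors' peak caller before they were deposited. The caller, the scale, the aligner, the IDR threshold and the depth were not given in the sources used here. Thus the precision that depth allows is unknown. Lists on dm3 were not used.

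Summits were assigned in Python 3.11.15 (pandas 2.3.3, numpy 2.4.6) to TSSs of protein-coding genes in Ensembl release 115. A summit counts for every gene with a TSS within 500 bp. A replicate summit within 100 bp of an IDR summit gave its signal, divided by the replicate median (77.8, 99.0 and 133 in replicates 1, 2 and 4). Assignment was tested on simulated summits at real starts. Sequence came from the RefSeq copy of the assembly. No tests were run, as 1 group has no comparison and genes are not replicates.

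Members, lists and motifs were chosen with earlier results of these data known. The named genes are the 8 large and 6 small subunit members with the highest signal, the 3 weakest of each, all unbound members, paralogue pairs and sta; others were named after their values were seen, and 2 bound members are not reported here by name, though they stay in the counts. A rule for summits over 100 bp downstream named none. The lists of assembly genes and paralogues were edited after values were seen: Rrp1 and Bka were dropped, as were symbols absent from the annotation, and the RpL37 pair was added. Alternatives changed the window, list, start annotation, match distance, motif window and replicates. A list of transcription factor genes was not described as a group, apart from Dref.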

Additional observations from a re-analysis of the deposited data

How the results depend on the processing

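Of 86 members, 72 to 83 had a summit under the alternatives: 78 with a window of 250 bp (against 37.7% of all protein-coding genes), 83 with 1000 bp (45.6%) or the pooled list (60.4%), 72 with only the IDR peaks above the median signal (29.4%), 72 when a summit counted for the nearest start only (32.8%), 80 without summits beside a stronger one (42.3%), and 75 to 76 without 1 replicate (36.3% to 37.7%). RefSeq starts and canonical starts alone, both added after seeing the data, gave 81 (42.6% and 39.5%), and adding RpL37-1 and RpL37-2 gave 82 of 88. The median relative signal of the members stayed between 2.71 and 2.82 without 1 replicate. The ratio of medians, large over small subunit, was 0.872 without replicate 4, which turns its direction, and 0.872 to 1.18 over the runs without 1 replicate; with the summit nearest to a TSS it was 1.48. The ratio of RpS14a over RpS14b was 0.678 to 1.07 over these runs, and turned to 1.07 without replicate 4. The median distance was -59.8 to -50.8 bp without 1 replicate. Within 50 bp of the summit, GGTCACAC was at 9 members (11.1%, against 5.35% of all bound genes), CATCNCTA at 1 (1.23%, against 4.06%), TATAAA at 9 (11.1%, against 17.5%) and GAGAG at 1 (1.23%, against 7.15%). Within 200 bp, CATCNCTA was at 11 (13.6%, against 14.4%), TATAAA at 38 (46.9%, against 54.0%) and GAGAG at 20 (24.7%, against 30.5%). In the promoter window of 250 bp before to 50 bp after the start, TATAAA was at 37 (45.7%, against 45.7%), GAGAG at 13 (16.0%, against 24.7%) and GGTCACAC at 14 (17.3%, against 15.1%). The TCT initiator was at 3 members with the C on the TSS, 56 within 5 bp and 72 within 10 bp. The cause was not tested, beyond the change in window length itself. Mitochondrial ribosomal protein genes fell to 39 with only the IDR peaks above the median signal and 37 with the nearest start only, against 62. No paired analysis was possible because there is 1 group. A planned run on a RefSeq promoter table was not run, for want of that table here. Runs without 1 replicate filter the same IDR list, which came from all 3 libraries.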
